A study of Homo sapiens with 9 samples.

Results

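Under HU, with both lists summed, 3 megabases carried more γH2AX peaks than any other 1 Mb bin of the genome. They were chromosome 15 from 40000001 to 41000000, chromosome 17 from 42000001 to 43000000 and chromosome 11 from 65000001 to 66000000 (GRCh38). The 3 bins were selected on the sum of their peaks in both HU lists, which was 414, 412 and 404, and the first bin outside the selection, on chromosome 6 from 43000001 to 44000000, held 392. Their HU counts are therefore given as a description with no test. In single lists the bins of chromosomes 15, 17 and 11 ranked 1, 3 and 5 in HU replicate 1, and 3 (tied), 1 and 2 in replicate 2. A peak was counted where its midpoint fell in a megabase, and 1506 of the 213467 peaks in the 8 lists did so.

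The lists come from γH2AX ChIP-seq on a human B-lymphocyte line, named GM09027A in the sample labels and GM07027 in the methods. Cells were left untreated or were exposed for 24 h to 0.1 µg/mL aphidicolin (APH), 2 mM hydroxyurea (HU) or 200 µM methyl methanesulfonate (MMS), with 2 separate treatments and ChIP experiments per condition. The question was whether agents that stall forks in different ways mark different loci. All cells came from 1 line, so no value below shows how cells of other people would vary. Each peak list was called on its own library against input, a sample of sheared chromatin taken before the precipitation, and the input was not analysed here. The lists held between 4327 peaks (untreated, replicate 2) and 79943 peaks (HU, replicate 1) on chromosomes 1 to 22 and X. They give no read numbers, so their depth is unknown, and how much of a difference in list length comes from sequencing cannot be told apart from the treatment.

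H2AX is a histone variant that the kinase ATR and its relatives phosphorylate where replication forks stall or DNA breaks, and the phosphorylated form, γH2AX, spreads over the flanking chromatin. HU inhibits ribonucleotide reductase and empties the pool of DNA precursors, APH inhibits the replicative DNA polymerases, and MMS methylates the bases of the template. Gene-rich DNA with a high GC and Alu content is in general copied early in S phase. Alu elements are short interspersed repeats of primates derived from 7SL RNA.

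Reference sequence (GRCh38, plus strand) is given here for the central 300 bp of an HU peak of the chromosome 17 megabase, as an example of the sequence under HU peaks. It is the peak that both HU lists share there with the highest mean fold enrichment over background among those whose centre holds no exon. Capitals would mark bases matched to an Alu element, and there are none in these 300 bp, although the peaks around them are wider.
chr17:42407976-42408275: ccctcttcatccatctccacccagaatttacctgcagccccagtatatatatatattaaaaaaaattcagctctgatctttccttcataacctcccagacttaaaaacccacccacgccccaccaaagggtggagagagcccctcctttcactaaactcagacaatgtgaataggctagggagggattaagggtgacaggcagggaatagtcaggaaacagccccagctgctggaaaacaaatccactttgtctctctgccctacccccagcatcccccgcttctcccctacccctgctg
This stretch lies in an intron of CAVIN1, a coat protein of caveolae, and its peak had fold enrichments of 3.10 and 3.41 in HU replicates 1 and 2. Its GC content was 50%, close to the 48.9% of the megabase.

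HU gave a dense array of peaks in all 3 megabases. Replicate 1 held 217 peaks in the chromosome 15 megabase, 208 in that of chromosome 17 and 202 in that of chromosome 11, and replicate 2 held 197, 204 and 202. In untreated cells the same megabases held 11, 8 and 16 peaks in replicate 1 and 7, 3 and 6 in replicate 2. APH gave 22, 17 and 32 peaks and then 17, 15 and 9, and MMS gave 18, 28 and 23 and then 16, 18 and 10. Every HU count was above every count of the other lists. Summed over the 3 megabases, the ratio of means to untreated was 24.1 for HU (615 ± 17 against 25.5 ± 13.4 peaks, SD, n = 2), 2.20 for APH (56.0 ± 21.2) and 2.22 for MMS (56.5 ± 17.7). For APH and MMS both replicates lay above both untreated replicates, and the exact two-sided permutation test of 2 against 2 lists gave p = 0.33 for each, the smallest value it allows. When only the strongest 4327 peaks of each list were counted, the ratios were 2.54 for HU, 1.08 for MMS and 0.479 for APH, so the APH direction turned and little of the MMS difference was left.

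**Figure D1:**
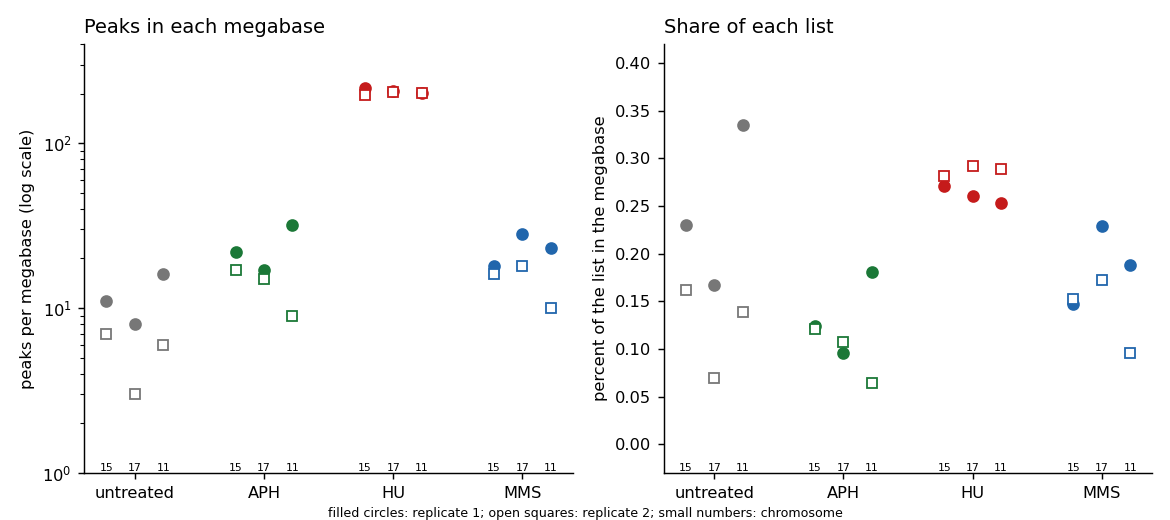
Peaks per megabase on a log scale (left) and the percent of each list's peaks that fall in the megabase (right), for the 2 lists of each condition, with filled circles for replicate 1 and open squares for replicate 2. HU stands above all other lists in counts (197 to 217 per megabase), while on the right the first untreated list reaches 0.335% on chromosome 11, above both HU lists.

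Because the lists differed in length, each count was also taken as a share of its list. The 3 megabases held 0.784% and 0.862% of the HU peaks, 0.732% and 0.370% of the untreated peaks, 0.402% and 0.293% of the APH peaks and 0.565% and 0.42% of the MMS peaks. All 8 shares exceeded an even spread over the assembled genome, by 2.84 to 8.36 times. The HU share was 1.49 times the untreated share, and the 4 pairs of an HU and an untreated list ran from 1.07 to 2.33. The APH share was 0.630 of the untreated share (exact permutation p = 0.667) and the MMS share 0.894 (exact permutation p = 1.0), with overlapping replicates in both cases. The MMS ratio turned above 1 in alternatives such as peaks of a fold enrichment of at least 3 (1.70), and was 1.33 without untreated replicate 1 and 1.03 without MMS replicate 2. The value of 1.70 rests on few peaks, since untreated replicate 1 reached at most a fold enrichment of 2.95 here.

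By megabase, the HU share lay above both untreated lists on chromosomes 15 and 17, a pattern found in 29.9% of all 2921 bins of 1 Mb, and none of the 3 lay below both, against 11.1% of the bins. The bins were chosen by these same HU counts, so the HU values are a description only. On chromosome 11 the groups overlapped, since untreated replicate 1 had 0.335% of its peaks there and the HU lists 0.253% and 0.289%. The APH share was below both untreated lists on chromosome 15 (7.09% of bins) and above both in none of the 3 (22.4% of bins). The MMS share was above both untreated lists on chromosome 17 (25.2% of bins) and below both on chromosome 15 (6.74% of bins). The chromosome 17 megabase ranked 7th and 17th of all bins in the MMS lists, with 28 and 18 peaks where the median bin held 2, and 286th and 147th in the APH lists. The chromosome 11 megabase ranked 31st in APH replicate 1 and 493rd in APH replicate 2, so the APH replicates did not place it alike.

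The HU peaks here were wider and stronger than those of their lists. Their median width was 1137 bp in replicate 1 and 1030 bp in replicate 2, against 763 and 743 bp over the whole lists. Peaks of 3 kb or more made up 13.9% and 13.8%, against 5.73% and 4.73% of the lists. The median fold enrichment was 2.83 and 2.90, against 2.70 and 2.77, and 90.4% and 78.9% of the peaks had a q-value of at most 0.05, against 78.5% and 60.3%. HU peaks covered 34.8% and 32.5% of the bases, and 213.7 kb, 171.6 kb and 217.7 kb of the chromosome 15, 17 and 11 megabases were covered in both replicates. No untreated, APH or MMS peak in the 3 megabases had a q-value of at most 0.05 and none was 3 kb wide, but such peaks were also rare in the whole lists (0.164% to 1.31% and 0.0983% to 2.91%). The widest HU peak, in replicate 1, spanned 16.7 kb over part of CAVIN1 and DNA beyond its end (chr17:42394101-42410797, fold enrichment 3.10). Replicate 2 had separate, narrower peaks there, at chr17:42396589-42404396 and chr17:42405747-42410504. On chromosome 15 both replicates had their widest peak over BMF, a pro-apoptotic member of the BCL2 family, at chr15:40083875-40095655 and chr15:40083884-40095629.

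The 9 next densest bins had slightly lower values. HU peaks covered 31.2% and 28.1% of their bases and had median widths of 1012 and 974 bp, and 13.4% and 11.8% were 3 kb or wider. The drop outside the selected bins was uneven. The megabase before the one on chromosome 15 held 21 and 14 HU peaks, with a GC content of 39.8% and 5.54% Alu, and the one after it 127 and 102. On chromosome 17 the neighbours held 73 and 60 before and 93 and 84 after, although the one before had 60 gene starts, more than the 44 of the selected megabase. On chromosome 11 they held 95 and 85 before and 132 and 138 after. The selected bins had 30, 44 and 49 protein-coding gene starts on chromosomes 15, 17 and 11 (median of all bins 4), a GC content of 48.0%, 48.9% and 51.8% (median 40.1%) and an Alu content of 21.2%, 30.0% and 25.3% (median 7.59%).

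Within the megabases, HU peaks were spread over nearly every 50 kb. Of the 60 windows of 50 kb, 59 held an HU peak in both replicates, where 22.9% of all 58240 windows of the genome did. The median window held 10.5 peaks in HU replicate 1 and 10 in replicate 2, and the ranges were 1 to 15 and 0 to 16. Windows with a peak in both replicates numbered 23 for APH (8.57% of all windows), 27 for MMS (5.66%) and 7 for untreated cells (1.62%), so these 3 conditions also stood above the genome. The choice of bins did not use their lists. Over all 58240 windows, however, their summed peaks rose with the HU sum (Spearman rho = 0.587), so their excess was not independent of the choice. The HU share of windows was fixed by that choice. The replicates were closest under HU, with a Spearman rho of 0.633 across the 60 windows, against 0.296 for APH, 0.226 for MMS and 0.034 for untreated cells. On chromosome 15 alone APH was higher (0.653) than HU (0.581), while HU was highest on chromosomes 17 (0.823) and 11 (0.487). These coefficients are descriptions across neighbouring windows of 2 lists each, and the low counts of the last 3 conditions (at most 4 per window) limit them.

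**Figure D2:**
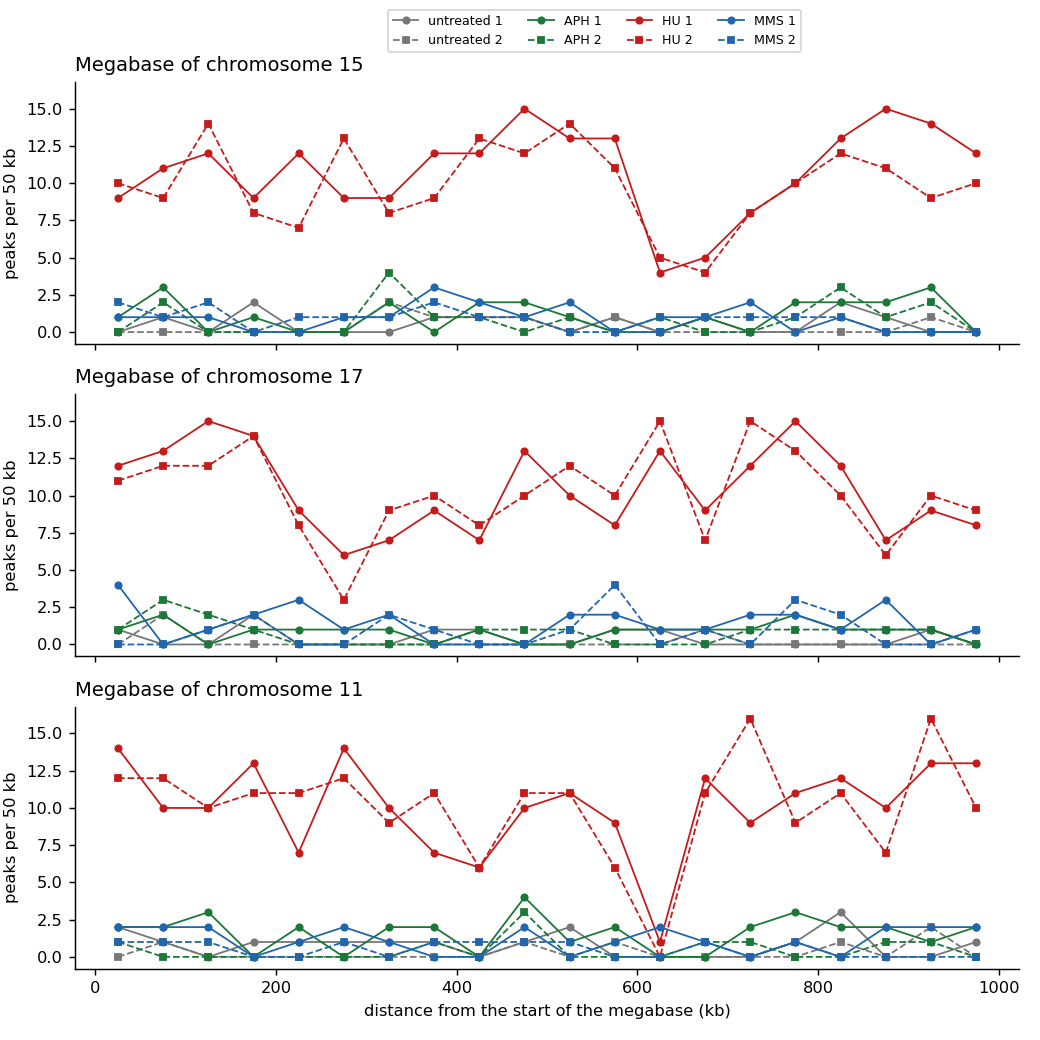
Peaks per 50 kb window along each megabase, with distance from its start in kb on the horizontal axis; circles with solid lines are replicate 1 and squares with dashed lines replicate 2. Both HU lists dip together at 600 to 700 kb on chromosome 15, at 250 to 300 kb on chromosome 17 and to 1 and 0 peaks at 600 to 650 kb on chromosome 11.

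The densest windows, with both HU lists summed, were at 900 to 950 kb of the chromosome 11 megabase (13 and 16 peaks, many of them between genes, with C11orf68 and part of TSGA10IP marked and DRAP1, a subunit of a transcriptional corepressor, holding none), at 3 places tied on chromosome 17 (28 peaks each, in windows that hold KCNH4, a potassium channel gene, RETREG3 and TUBG1, and WNK4, VPS25 and RAMP2) and at 2 adjoining places on chromosome 15 (27 peaks each, in windows that hold part of BAHD1 and part of CCDC32). The emptiest windows on chromosome 15 were 600 to 650 kb and 650 to 700 kb, with 4 and 5 and then 5 and 4 peaks, the first over KNL1, the scaffold of the outer kinetochore, which also reaches into the second. On chromosome 17 the emptiest window was 250 to 300 kb, with 6 and 3 peaks over STAT5A and STAT5B, the paired transcription factors of cytokine signalling.

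The barest window of all was 600 to 650 kb of the chromosome 11 megabase, with 1 HU peak in replicate 1 and 0 in replicate 2. Most of it lies in the longest stretch of the 3 megabases without an HU peak in either list, 47.6 kb at chr11:65603959-65651515, with 23 HU peaks (both lists summed) in the next 50 kb window and 15 in the one before. This stretch holds PCNX3, a membrane protein of the pecanex family, SIPA1, a GTPase activator for Rap, and the beginning of MAP3K11, a mixed-lineage kinase. It held no peak of untreated or APH cells in either replicate, and 2 MMS peaks in replicate 1 and 0 in replicate 2. Its GC content was 59.8%, with 32.0 CpG per kb and 5.54% Alu. The longest bare stretch on chromosome 17 was shorter, 16.5 kb at chr17:42668906-42685435 over PLEKHH3, CCR10 and CNTNAP1, again with a high GC content of 60.9%, 48.0 CpG per kb and 6.68% Alu. The longest on chromosome 15, also of 16.5 kb at chr15:40653980-40670489 over the end of KNL1, was of the opposite kind, with a GC content of 43.8%, 14.4 CpG per kb and 50.8% Alu. Reads that map to several places or that are GC-rich are recovered unequally by sequencing, and the part of this in the bare stretches was not tested.

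Across the 60 windows the HU sum followed neither GC content (rho = 0.075) nor Alu content (rho = 0.099). The megabases differed in this. On chromosome 11 windows with more Alu held more HU peaks (rho = 0.598, n = 20 windows) and windows with higher GC fewer (rho = -0.503), whereas on chromosome 15 the rho was -0.130 with Alu and 0.432 with GC, and on chromosome 17 it was 0.089 and 0.168. Over all 58240 windows, most of them with no peak, the rho was 0.560 with Alu and 0.503 with GC. Windows within a megabase share their library and their neighbours, so no p-value is given.

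At gene starts the HU peaks were sparse. Of 627 HU peaks in replicate 1 and 603 in replicate 2, 16 and 15 had their midpoint within 1 kb of a protein-coding gene start, an area that makes up 7.32% of the 3 megabases. This gave 72.9 and 68.4 peaks per Mb near starts against 220 and 211 per Mb elsewhere, a ratio of 0.328 ± 0.006 (SD, n = 2 lists). It was 0.308 and 0.254 on chromosome 15, 0.355 and 0.362 on chromosome 17 and 0.331 in both lists on chromosome 11. Within 500 bp the ratio was 0.127 and within 2 kb 0.745, so the gap was narrow, and peaks that overlapped the 1 kb area at any base gave 0.683. An HU peak lay within 1 kb in both replicates at 8 of 123 gene starts (6.5%), a larger share than the 1.73% of all gene starts, in bins that were chosen for their HU peaks. They included those of DNAJC7, FAM89B, HCRT, NKIRAS2, PPP1R14D, RAMP2 and WNK4, and HCRT encodes the precursor of the orexin peptides.

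**Figure D3:**
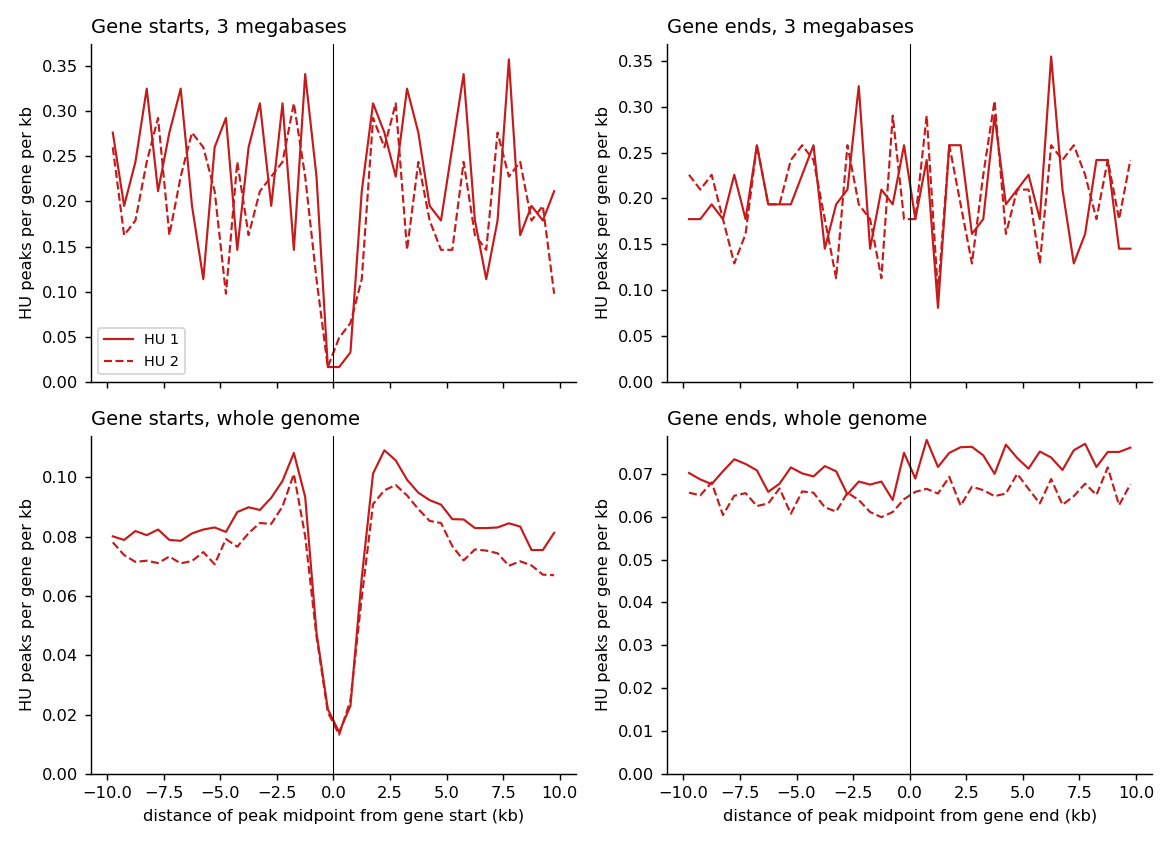
HU peak midpoints per gene per kb in steps of 500 bp around protein-coding gene starts (left) and ends (right), in the 3 megabases (top) and over the whole genome (bottom), with solid lines for replicate 1 and dashed lines for replicate 2. The density drops at gene starts in all 4 curves (0.073 and 0.061 within 1 kb in the 3 megabases against 0.230 and 0.210 at 5 to 10 kb) and shows no such drop at gene ends.

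A gap at starts was also measured outside these megabases and in the other conditions. Over the whole genome, HU midpoints within 1 kb of starts were at 0.327 and 0.363 of their density 5 to 10 kb away, and in the 3 megabases at 0.318 and 0.291. The other conditions had genome-wide values of 0.387 and 0.459 (untreated), 0.363 and 0.344 (APH) and 0.356 and 0.36 (MMS). In the 9 next densest bins the ratio near to elsewhere under HU was 0.417 ± 0.017, and when the number expected at starts was taken bin by bin over the genome it was 0.50 ± 0.039. Without that step the genome gave 1.00 and 1.16, since bins rich in genes were also rich in HU peaks. In the 3 megabases the other conditions had too few peaks near starts to compare. Untreated replicates had 2 of 35 and 0 of 16, APH replicates 2 of 71 and 1 of 41, and MMS replicates 5 of 69 and 0 of 44.

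Gene ends showed no such gap. Within 1 kb of ends lay 45 and 47 HU peaks, a density ratio to the rest of 1.05 ± 0.066 (SD, n = 2). It was 1.58 and 1.35 on chromosome 15, 1.03 and 1.06 on chromosome 17 and 0.572 and 0.945 on chromosome 11. The bins were chosen for their HU peaks, which fixes a larger share of marked ends than in the genome. An HU peak lay within 1 kb of the end in both replicates for 33 of 124 genes, where 5.75% of all gene ends had one. The ends of TUBG1 and TUBG2, the γ-tubulin genes, of DLL4, a Notch ligand, and of BAHD1, a reader of silent chromatin, were among them, each with 1 peak per replicate.

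By annotation of protein-coding genes, HU peaks fell on introns and on DNA outside these genes about as often as those bases occur. Stretches held only by lncRNA genes counted as outside. In replicates 1 and 2, 43.1% and 42% of midpoints lay in introns (42.1% of bases), 37.0% and 38.5% outside protein-coding genes (32.8%) and 10.5% and 9.62% in exons away from starts and ends (11.5%). The weaker conditions differed from each other. Outside protein-coding genes lay 17 of 35 and 11 of 16 untreated peaks (48.6% and 68.8%), 33 of 71 and 18 of 41 APH peaks (46.5% and 43.9%), but 16 of 69 and 9 of 44 MMS peaks (23.2% and 20.5%). The MMS and untreated replicates did not overlap in this share, and 2 against 2 lists cannot reach a p below 0.33 in the exact permutation test.

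HU peaks in these megabases were poor in CpG and close to their surroundings in Alu content. They held 14.1 and 14.2 CpG per kb against 22.6 and 22.2 in the rest of the megabases, and a GC content of 47.7% and 47.9% against 50.6% and 50.4%. Alu made up 27.2% and 26.2% of their bases against 24.6% and 25.2% of the rest, a ratio of 1.07 ± 0.046 (SD, n = 2), which was 0.955 when only the central 300 bp of each peak were counted. The ratio differed by megabase, at 1.39 and 1.44 on chromosome 11, 1.06 and 1.02 on chromosome 17 and 0.896 and 0.728 on chromosome 15, where HU peaks held less Alu than the rest. Peaks of the other conditions held less Alu than the rest, with ratios of 0.688 ± 0.111 (untreated), 0.613 ± 0.074 (APH) and 0.601 ± 0.009 (MMS), although untreated replicate 2 had 1.49 on chromosome 17. For these conditions the ratio was 0.984 to 1.17 over the whole genome and 0.295 to 0.559 in the 9 next densest bins. Over the whole genome the HU ratio was 2.21 and 2.19, a value that also holds the concentration of HU peaks in Alu-rich bins, while in the 9 next densest bins it was 0.926 and 0.910. Of 371 tracts of at least 20 A or 20 T in a row in the 3 megabases, 100 lay in HU peaks in each replicate (27.0%), below the share of bases that the peaks cover. On chromosome 11 the replicates differed, with 35.1% of tracts against 36.5% of bases in replicate 1 and 37.8% against 33.4% in replicate 2. The authors removed reads of low mapping quality, which thins repeats such as Alu, and its part in these ratios was not tested.

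The peaks of the weaker conditions lay mostly on ground that HU also marked, in bins chosen for their HU peaks. Counting peaks that overlap an HU peak at any base, 63.6% to 100% did so here, against 33.1% to 39.4% of the whole untreated lists, 23.5% to 28.6% of the APH lists and 23.4% to 26.5% of the MMS lists. HU peaks cover a larger part of these bins than of the genome, which alone raises the overlap here. The whole-list shares were not set against HU cover, so the higher local shares do not show a closer match in these bins. Of 35 midpoints of untreated replicate 1, 31 fell inside peaks of HU replicate 1 and 28 inside those of HU replicate 2, and of 16 in untreated replicate 2, 13 and 14 did. These shares of 80% to 88.6% compare with the 34.8% and 32.5% of bases that HU peaks cover. For APH the shares were 71.8% and 66.2% in replicate 1 and 73.2% and 68.3% in replicate 2. For MMS they were 58.0% and 50.7%, and 59.1% and 47.7%. The 2 untreated lists lay above both APH lists, and these above both MMS lists, in their share on either HU list. Midpoints of 1 HU list fell in peaks of the other at 55.9% and 54.2%, less often than the untreated midpoints did. All lists were called against input, so a shortfall of input reads at a place could enter each of them, and this was not tested.

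**Figure D4:**
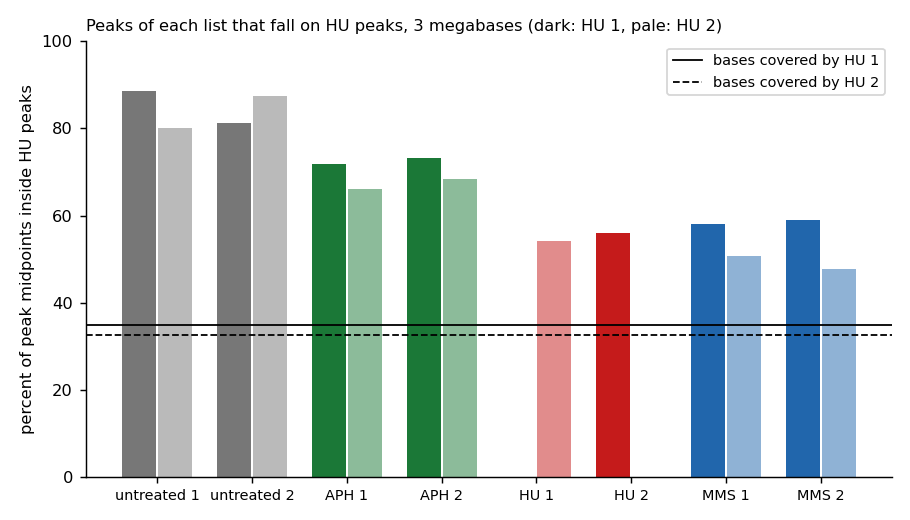
Percent of the peak midpoints of each list in the 3 megabases that lie inside peaks of HU replicate 1 (dark bars) and HU replicate 2 (pale bars), an HU list only in the other one; the solid and dashed lines mark the percent of bases those HU peaks cover (34.8% and 32.5%). All bars exceed the lines, and untreated lists stand highest (80% to 88.6%).

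Replicates of the weaker conditions rarely shared a peak. No untreated peak of replicate 1 (0 of 35) overlapped one of replicate 2 (0 of 16), although 16.0% and 19.4% of the peaks of the whole lists did. For APH 4 of 71 and 4 of 41 peaks overlapped (5.63% and 9.76%, against 10.4% and 13.3% of the lists), and for MMS 9 of 69 and 9 of 44 (13.0% and 20.5%, against 5.98% and 6.97%). Of the HU peaks 74.2% and 75.8% overlapped one of the other replicate, against 43.3% and 50.9% of the lists, where the wider peaks and the larger cover here make overlap easier.

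Joining overlapping peaks of all lists gave 724 sites, of which 534 held HU peaks alone and 30 held none. No site was marked in all 8 lists, and 9 sites, 3 in each megabase, held a peak of each condition. On chromosome 11 they were chr11:65085059-65086772, over an exon with UTR of TMEM262 and ZFPL1, chr11:65097282-65106583 over exons of VPS51, a subunit of a vesicle tethering complex, and chr11:65990037-65992863 between genes. On chromosome 15 they were chr15:40325032-40333582 over CCDC9B and INAFM2, chr15:40407356-40409342 over IVD, a mitochondrial enzyme of leucine breakdown, and chr15:40684846-40685641 between genes. On chromosome 17 they were chr17:42020332-42023529 over DNAJC7 and NKIRAS2, chr17:42181507-42183702 between genes and chr17:42579819-42589573 over RETREG3, a receptor for autophagy of the endoplasmic reticulum. The TMEM262 site was one of those found in 6 lists, with fold enrichments of 2.54 in untreated replicate 2, 2.74 in APH replicate 1, 3.11 and 3.26 under HU and 2.77 and 3.03 under MMS. Wide HU peaks can join separate peaks of other lists into 1 site, so a site marked by 2 lists does not always hold overlapping peaks of them.

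The highest mean fold enrichment among HU peaks shared by both replicates on chromosome 17 was at chr17:42104574-42105411 on an exon of DHX58, a cytosolic RNA sensor of the RIG-I family, with 2.84 and 3.92. On chromosome 11 it was at chr11:65551751-65551962 on an exon of LTBP3, a binding protein of latent TGF-β, with 3.74 and 3.04.

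Of 126 protein-coding genes that reach into the 3 megabases, 100 held an HU peak in both replicates, where 45.8% of all 19970 protein-coding genes did. The bins were chosen for their HU peaks, so this excess, and the one per length below, were fixed by that choice. The genes here were short, with a median length of 11.4 kb against 27.5 kb. A further comparison of levels between genes was made per length. Peaks rose in number with gene length (Spearman rho = 0.870 across the 126 genes, which share the same 2 lists), and the 39 genes of 20 kb or more held a median of 2.16 HU peaks per 10 kb (mean of the 2 lists), against 0.240 for all 11618 such genes. BECN1, a core autophagy gene, and the co-chaperone gene DNAJC7 had the highest density among those 39, with 3.02 and 3.00 HU peaks per 10 kb. PCNX3 had none, and EIF2AK4, the amino acid sensing kinase GCN2, STAT5A, INO80 and KNL1 had 0.788, 0.820, 0.983 and 0.995. These densities are over whole genes. EIF2AK4 and INO80 lie mostly outside the chromosome 15 megabase and DNAJC7 partly outside that of chromosome 17, so their values are not those of the selected bins alone.

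**Figure D5:**
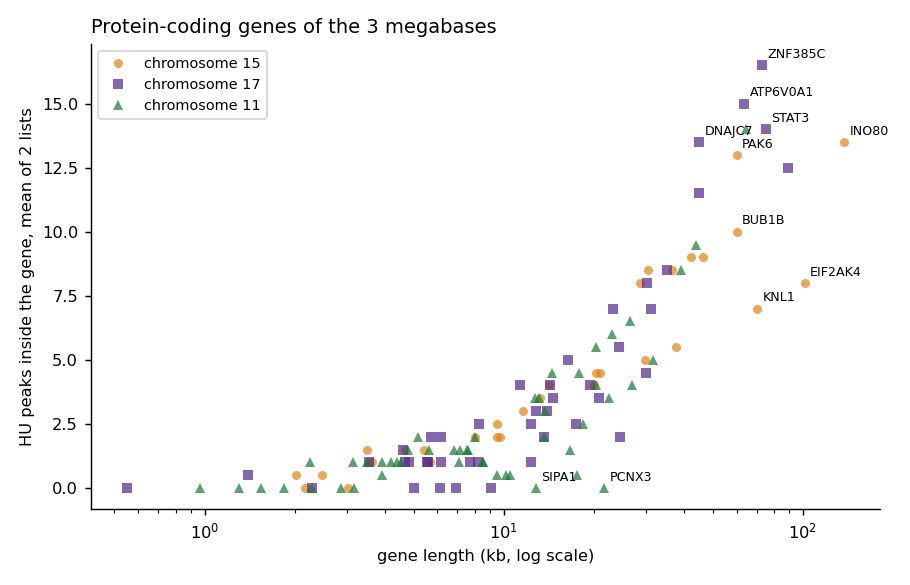
HU peaks inside each protein-coding gene of the 3 megabases (mean of 2 lists) against gene length in kb on a log scale, coloured by chromosome. Peak number rises with length (rho = 0.870, n = 126 genes), with PCNX3 and SIPA1 at 0 and KNL1, EIF2AK4 and INO80 low for their length. EIF2AK4 and INO80 lie mostly outside the megabase and are plotted over the whole gene.

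The genes with most HU peaks in replicates 1 and 2 on chromosome 15 were the lncRNA ENSG00000259536 (17 and 17), INO80, the ATPase of a chromatin remodeller (17 and 10 over the whole gene, which runs past the megabase), PAK6, a p21-activated kinase (15 and 11), the lncRNA SRP14-DT (11 and 10) and BUB1B, a kinase of the spindle checkpoint (11 and 9). On chromosome 17 they were ZNF385C, a zinc finger gene (16 and 17), ATP6V0A1, a subunit of the vacuolar proton pump (16 and 14), STAT3 (13 and 15), DNAJC7 (15 and 12, a gene that runs past the megabase) and STAT5B (13 and 12). On chromosome 11 they were ENSG00000285816 (15 and 13), which runs through POLA2, then POLA2 itself, a subunit of the polymerase α and primase complex (10 and 9), CFL1, which encodes the actin-severing protein cofilin (9 and 8), and ENSG00000255557 and ARL2-SNX15 (7 and 6 each). Overlapping genes share peaks and these are counted in each of them. Among the protein-coding genes of these bins, which were chosen for their HU peaks, 17 (13.5%) had no HU peak in either list, against 39.8% of all. The longest of them were PCNX3 (21.7 kb), SIPA1 (12.8 kb) and KCNK7 on chromosome 11, PLEKHH3 (9.08 kb) and the adjoining amine oxidase genes AOC3 and AOC2 on chromosome 17, and INAFM2 and CHST14, the only 2, on chromosome 15.

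Of 7 listed replication and repair genes in the 3 megabases, 6 held an HU peak in both replicates, close to the 100 of 126 (79.4%) of all protein-coding genes there. Among them POLA2 had 10 and 9, KAT5, an acetyltransferase of the damage response, and the overlapping RNASEH2C, a subunit of the RNase that removes ribonucleotides from DNA, 1 and 2 each, PSMC3IP, a partner of meiotic recombinases, 1 and 1, and INO80 17 and 10. MUS81, the nuclease that cuts stalled forks, had 0 and 1. The median of the list was 1.81 HU peaks per 10 kb, against 2.12 for the 126 genes. MMS marked POLA2 (2 and 1) in both replicates, and no gene of the list held an APH peak.

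All 5 listed kinetochore and spindle genes held HU peaks in both replicates, beside 79.4% of all 126 genes, at a median of 1.66 per 10 kb against 2.12. KNL1 had 7 and 7 peaks in 70.3 kb and BUB1B 11 and 9 in 60.1 kb, so KNL1 was the sparser of these 2 genes of similar length. KNSTRN, a spindle component, had 4 and 2, and TUBG1 and TUBG2 1 and 1 each. None of the 5 held a peak in both replicates of another condition, where 8.73% (APH) and 15.9% (MMS) of the 126 genes did.

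Of 10 listed genes for transcription factors and chromatin proteins, 8 held HU peaks in both replicates, the share of all 126 genes being 79.4%. The STAT genes lie side by side on chromosome 17 and differed, with 13 and 15 peaks in STAT3 (75.2 kb), 13 and 12 in STAT5B (89.5 kb) and 3 and 1 in STAT5A (24.4 kb). EZH1, a histone methyltransferase of the Polycomb system, had 9 and 14, BAHD1 9 and 7, DPF2, a subunit of the BAF remodeller, 3 and 5, and MLX and FOSL1 1 and 1 each. RELA, a subunit of NF-κB, and OVOL1 had 1 and 0. MMS marked STAT3 (2 and 3) and BAHD1 (1 and 1) in both replicates, and APH marked EZH1 (1 and 1). The list had a median of 1.51 HU peaks per 10 kb.

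The nuclear lncRNAs NEAT1, the scaffold of paraspeckles, and MALAT1, both very abundant transcripts in many cells, held 3 and 2 and 1 and 3 HU peaks, and no peak of another condition. Of 6 listed signalling and transport genes, 4 held HU peaks in both replicates (79.4% of all 126 genes did), namely PAK6, ATP6V0A1, PLCB2, a phospholipase (3 and 7), and DLL4 (2 and 2). MAP3K11 had 1 and 0 and SIPA1 had none.

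The other conditions marked few genes in both replicates. In untreated cells no protein-coding gene of the 126 did so, where 2.88% of all did, and 1 lncRNA, ENSG00000259536, had 1 and 1. Under APH 11 of 126 did (13.1% of all genes): ZNF385C (2 and 3), DNAJC7 (1 and 2), IVD (2 and 1), BECN1, CAVIN1, EZH1, WNK4, DNAJC17, SPINT1, VPS18 and ARL2-SNX15, and beside them the non-coding SRP14-DT, ENSG00000259536, SPINT1-AS1 and LINC00671. SPINT1, a serine protease inhibitor, VPS18, a subunit of vesicle tethering complexes, and DNAJC17 lie close together on chromosome 15. Under MMS 20 of 126 did (12.8% of all genes). STAT3 (2 and 3) and VPS25, a subunit of the ESCRT-II complex (2 and 2 in 6.15 kb), had most peaks, and the others included ARL2-SNX15, ZFPL1, TMEM262, POLA2, ENSG00000285816, EIF2AK4, BMF, PAK6, IVD, BAHD1, RMDN3, ZFYVE19, ATP6V0A1, COASY, RETREG3, BECN1 and PTGES3L-AARSD1, with the non-coding SRP14-DT, ENSG00000291174, ENSG00000255557 and ENSG00000267632. With 1 or 2 peaks per gene and list, most of these genes rest on single peaks. The genes here were shorter than all genes (median 11.4 kb against 27.5 kb), so these shares of genes are not like for like. By windows of equal length, the same 3 conditions stood above the genome.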

How the data were processed

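ChIP-seq reads were trimmed, aligned to GRCh38 with Bowtie2, filtered for mapping quality and duplicates and stripped of blacklisted regions by the authors. They called broad peaks with MACS2 for each replicate against input (p cutoff 1e-3) and deposited for each peak a score, a fold enrichment (a ratio to background), a −log10 p and a −log10 q. Read numbers are not in these lists, so depth is unknown. The untreated, APH, HU and MMS groups, 2 lists each, follow the labels, and replicates were separate treatments of the 1 line. Peaks were counted by midpoint with Python 3.11.15, numpy 2.4.6, pandas 2.3.3 and scipy 1.17.1, genes were taken from GENCODE release 44, and sequence was read with pysam 0.24.0. Alu elements were matches of at least 100 bp (E-value at most 1e-05) found with blastn 2.17.0+. The query was 1 Alu copy of 300 bp from the 3 megabases, picked among 200 copies found there with the 7SL sequence. Groups were compared by two-sided exact permutation tests over lists, and scripts were tested on simulated peaks. The members and gene lists were chosen with earlier results of these data known. Named were the densest and emptiest 50 kb windows of each megabase, the 5 genes with most HU peaks, the 3 longest protein-coding genes without one, genes with a peak in both replicates of another condition, the listed genes, and sites marked in all 4 conditions. Other stretches and peaks, such as the bare stretches and the widest peaks, were chosen after their values were seen. Alternatives were other thresholds, distances, window sizes, annotations and left-out lists. Some listed genes and sequences that this rule names are not reported here.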

Additional observations from a re-analysis of the deposited data

How the results depend on the processing

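Direction turned as follows, and the cause was not tested. The APH to untreated ratio of peak numbers was 0.479 with equal numbers of strongest peaks. The MMS share ratio was 1.70 at a fold enrichment of at least 3, 1.16 in the stronger 50% of each list, 1.08 with equal numbers, 1.29 by covered bases, 1.13 with the windows moved up by 500 kb, 1.03 without MMS replicate 2 and 1.33 without untreated replicate 1. The HU ratio of peak numbers was 159.5 at a fold enrichment of at least 3 and 2.54 with equal numbers (MMS 1.08), and the HU share ratio was 2.80, 2.55 (stronger 50%), 2.54 (equal numbers) and 3.41 (covered bases). Leaving out 1 list at a time gave ratios of peak numbers of 1.60 to 3.5 (APH), 17.6 to 38.4 (HU) and 1.61 to 3.53 (MMS), and share ratios of 0.474 to 0.939, 1.12 to 2.23 and 0.673 to 1.33. The density ratio at gene starts under HU was 0.127 within 500 bp, 0.745 within 2 kb, 0.683 with any overlap, 0.589 for all genes, 0.254 with RefSeq, 0.299 at a fold enrichment of at least 3, 0.320 at a q-value of at most 0.05 and 0.299 in the stronger 50%, and it stayed below 1 in each of these. Under APH it was, in that order without the q-value, 0.183, 0.750, 0.695, 0.685, 0, 6.34 and 0.514, and within 2 kb it was 1.64 in untreated cells and 1.38 under MMS. At gene ends it was 0.935 within 500 bp, 0.944 within 2 kb and 0.875 with any overlap under HU. It was 1.2, 1.17 and 1.21 under MMS, with 1.16 for all genes, 5.60 at a fold enrichment of at least 3 and 1.96 in the stronger 50%. It was 0.38 within 500 bp and 0.742 within 2 kb in untreated cells, and 0 at a fold enrichment of at least 3 and 1.38 in the stronger 50% under APH. Windows with a peak in both replicates made up, in untreated, APH and MMS cells, 4.17%, 17.5% and 19.2% at 25 kb, 33.3%, 70.0% and 76.7% at 100 kb, 56.7%, 80% and 80% for a peak in at least 1 replicate, 0%, 0% and 1.67% at a fold enrichment of at least 3, and 1.67%, 15.0% and 20% in the stronger 50%. In the central 300 bp of each peak the Alu ratio was 0.522 (untreated), 0.507 (APH) and 0.955 (HU). No untreated, APH or MMS peak of the 3 megabases had a q-value of at most 0.05, so that threshold gave no value for them. Untreated replicate 1 had no peak there with a fold enrichment of at least 3 (highest 2.95). The ratios to untreated at that threshold, and its APH and MMS values at gene starts and ends, therefore rest on few peaks.

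The replicate numbers were also used as a block, with ratios taken within each number. This gave 2.28 (APH), 26.0 (HU) and 2.33 (MMS) for peak numbers and 0.659, 1.58 and 0.937 for shares, and no direction changed. Correlations between conditions of the difference between replicates over all 1 Mb bins ran from -0.154 to 0.169, and the labels name no shared batch, so the samples share only a number.

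Lists of few peaks limit what can be seen. The untreated lists held 35 and 16 peaks in the 3 megabases and at most 2 near gene starts, and 2 against 2 lists cannot reach a p below 0.33. Peak lists give no signal outside peaks, so a bare stretch is one where no peak passed the threshold, not one shown to lack γH2AX.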
